A study of Mus musculus with 18 samples.

Results

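The genes described here are 7 inhibitors of apoptosis, taken by their symbols from an expression table of 19862 genes. Bcl2, Bcl2l1, Bcl2l2 and Mcl1 encode pro-survival proteins of the Bcl-2 family, and Xiap, Birc2 and Birc3 encode inhibitor of apoptosis proteins, or IAPs. All 7 were in the table and all 7 passed the filter on low values, which kept genes with a value above 0 in at least 3 of the 18 libraries. The cells were a mouse osteosarcoma line derived from tumours of p53 and Rb conditional knockout mice, with floxed alleles of Prmt1 (Prmt1 f/f) and a stably expressed CreER, a Cre recombinase that acts when tamoxifen binds it. Prmt1 encodes an arginine methyltransferase. The series' design names a single line, so no other tumour is represented.

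Cells given tamoxifen (4OHT) are the Prmt1 knockout (KO, labelled Prmt1-/-), and cells given the ethanol vehicle are the control (labelled wild type, although they carry the floxed alleles and CreER too). Loss of Prmt1 cannot be told apart from exposure to 4OHT or from Cre activity, because every KO library had all of them and no control library had 4OHT. RNA was taken from the cleared cytoplasmic lysate (Total), from pooled sucrose gradient fractions with fewer than 3 ribosomes per mRNA (Light) and from those with more than 3 (Heavy). Each of the 6 groups, KO and control in Total, Light and Heavy RNA, had 3 libraries. The labels do not say that these came from separate cultures, so p-values measure the spread between libraries, which may be technical.

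Pro-survival Bcl-2 proteins hold back Bax and Bak, which permeabilise the outer mitochondrial membrane and release cytochrome c. They are opposed by BH3-only proteins such as Bim, Puma and Bmf, and the protein of Mcl1 is turned over rapidly. IAPs act further down or to the side: the protein of Xiap binds and inhibits caspases, and those of Birc2 and Birc3, called cIAP1 and cIAP2, are ubiquitin ligases that act with TRAF2 at the TNF receptor and restrain non-canonical NF-kB signalling. Osteosarcoma is a tumour of bone-forming cells. Ribosomes scan an mRNA's leader, the stretch before the start codon, and ATGs upstream of the true start can lower its use.

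Since the assay separates RNA by ribosome load, the bases around each start codon are shown first. They were read from GRCm38 (mm10) on the coding strand, in the principal transcript of the GENCODE M21 annotation. Each line has 20 bases, and capitals mark the base 3 before the ATG, the ATG itself and the base after it, the positions that weigh most in the Kozak context.
Bcl2: cggggaAggATGGcgcaagc
Bcl2l1: attataAaaATGTctcagag
Bcl2l2: gccgccCggATGGcgacccc
Mcl1: cgtccgAccATGTttggcct
Xiap: ccagagAagATGActtttaa
Birc2: ttactaCtcATGGacaaaac
Birc3: catctcAccATGAacatggt
Bcl2 was the member with both a purine 3 bases before the ATG and a G after it, a pair found in 41.8% of 19794 annotated transcripts. Bcl2l2 and Birc2 had the G without the purine, and Bcl2l1, Mcl1, Xiap and Birc3 had the purine without the G.

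The leaders differed more than the start contexts. The annotated leader of Mcl1 had 69 nt and held no ATG, whereas that of Bcl2 had 1394 nt with 11 upstream ATGs and that of Xiap had 671 nt with 21. Birc2 had 969 nt with 17 upstream ATGs, Bcl2l1 had 393 nt with 4, Birc3 had 294 nt with 1 and Bcl2l2 had 226 nt with 1. Over all annotated transcripts the median leader had 173 nt and 54.6% held at least 1 upstream ATG. The deposited table is per gene, so which leader the cells used is not known from it.

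On GRCm38 the gene of Bcl2 lies at chr1:106538178-106714274 on the minus strand, where an antisense gene model and a pair of same-strand models (Mir3473f and Gm37053) overlap it, and Bcl2l1 lies at chr2:152780668-152831728 on the minus strand. Bcl2l2 lies at chr14:54883377-54888234 on the plus strand and overlaps another protein-coding gene model of the same strand, Gm20521, which has no row in the table. Mcl1 lies at chr3:95658788-95663176 and Xiap at chrX:42059679-42109656, both on the plus strand. Birc2 (chr9:7818227-7837064) and Birc3 (chr9:7848699-7873186) are neighbours on the minus strand and related in sequence, so their reads are uncertain where copies are alike. The labels do not say how reads in shared stretches were counted or whether strand was used, so the values of Bcl2 and Bcl2l2 may include reads of the overlapping models, and those of the same strand would not be told apart by strand.

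Values are CPM, the reads of a gene per 1000000 reads of its library, and changes are differences of log2(CPM + 1), KO minus control, which understate changes of low genes. Depth was 32.3 to 57.9 M reads per library. Prmt1 itself had 147, 176 and 173 CPM in Total KO libraries against 256, 277 and 285 CPM in Total control libraries, a log2 change of -0.72 (SE 0.21, adjusted p = 0.0202, limma). In Heavy RNA it had 64.4, 121 and 145 CPM in KO against 412, 378 and 370.1 CPM in control (log2 change -1.88, adjusted p = 7.87e-06). Light RNA had 166, 229 and 235 CPM in KO against 255, 243 and 218 CPM in control, groups that overlapped (log2 change -0.20, adjusted p = 0.506). The labels do not name the stretch that Cre removes, and reads outside it check nothing. The 3 KO libraries numbered 1 were known from earlier results of these data to lie farthest from their groups, and results that rest on them are given with and without them.

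Of the osteoblast markers Runx2, Col1a1, Col1a2 and Sparc were well measured, while Bglap averaged 0.109 CPM and Ibsp 0.00107 CPM over all libraries. The 11 osteoblast markers summed to 4568 to 13193 CPM in KO libraries and to 2347 to 6153 CPM in control libraries. Macrophage markers, 9 of 10 in the table, summed to 17.8 to 25.9 CPM in KO and 7.10 to 10.9 CPM in control, with Ptprc, which marks all leukocytes, at 0.00778 CPM on average. Endothelial markers (8 of 8) summed to 2.03 to 4.33 CPM in KO and 0.181 to 0.855 CPM in control, and epithelial markers (7 of 7) to 14.7 to 27.2 CPM in KO and 3.85 to 10.3 CPM in control. Lymphocyte markers, 6 of 8 in the table, stayed at or below 0.498 CPM in every library. These sums moved with genotype as the genes below did, and their part in those results was not tested.

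Per kilobase of coding sequence, the scale on which levels of different genes are compared here, Mcl1 had the highest mean level of the 7 genes in each group and Birc3 the lowest. That order depends on the length used. The annotated transcript of Bcl2 had 7191 nt and that of Birc3 2667 nt, with coding sequences of 711 and 1809 nt. On transcript length Bcl2, and not Birc3, would be the lower of the pair. In Light control RNA the lead of Mcl1 was within the spread of the libraries (150 ± 9.03 CPM per kb, with Bcl2l2 at 146 ± 18.8). This closeness rests on coding length as well. Their annotated transcripts had 3418 and 3509 nt, and without a length they stood at 149 ± 8.99 and 85.2 ± 10.9 CPM. In bulk RNA, fewer cells that use a gene and less of its RNA per cell cannot be told apart. In Total RNA, Mcl1 stood at 206 ± 7.57 CPM per kb in KO and 208 ± 15.2 in control (SD, n = 3). Bcl2l1 followed in KO with 82.3 ± 6.65 CPM per kb, against 53.3 ± 1.93 in control, and Bcl2l2 had 72.5 ± 0.320 in KO against 122 ± 4.09 in control. Xiap had 13.3 ± 2.49 CPM per kb in KO and 10.9 ± 2.88 in control, Bcl2 had 3.68 ± 0.0327 in KO and 7.08 ± 1.91 in control, and Birc2 had 3.45 ± 0.962 in KO and 3.01 ± 0.887 in control. Birc3 stood at 1.87 ± 0.421 CPM per kb in KO and 1.69 ± 0.198 in control. The places after Mcl1 thus differed between the genotypes in Total RNA: Bcl2l1 before Bcl2l2 in KO, Bcl2l2 before Bcl2l1 in control.

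**Figure D1:**
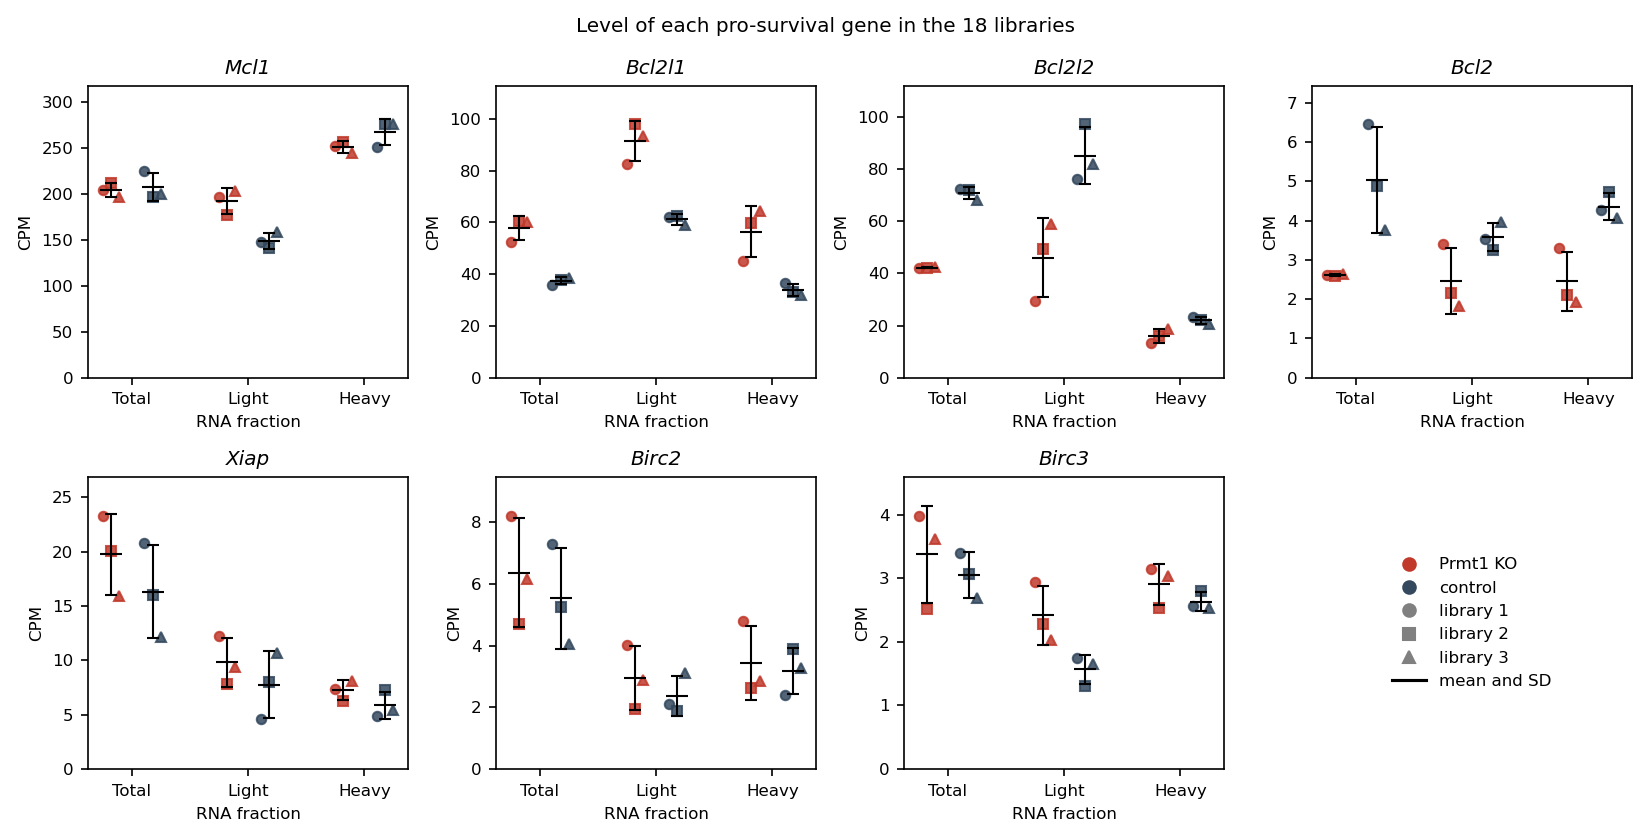
CPM of each of the 7 genes (vertical axes, each from 0) in Total, Light and Heavy RNA, with the 3 KO libraries (red) left of the 3 control libraries (dark blue), symbols for the library number, and bars for mean and SD. Bcl2l1 lies higher in KO than in control and Bcl2l2 lower in all 3 kinds of RNA, without overlap of the libraries, while those of Xiap and Birc2 overlap in each.

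In Total RNA, 3 of the 7 genes passed the test across all genes between KO and control: Bcl2l1 rose, and Bcl2 and Bcl2l2 fell. Of the 17515 genes tested 26.4% were called at an adjusted p under 0.05 (16.1% higher and 10.3% lower in KO). In Light RNA 4 were called, with Bcl2l1, Mcl1 and Birc3 higher and Bcl2l2 lower, where 39.5% of all genes were called (26.8% higher, 12.7% lower). In Heavy RNA 2 were called, Bcl2l1 higher and Bcl2 lower, where 28.9% of all genes were called (18.5% higher, 10.4% lower). The libraries of the genotypes did not overlap for 3 of the 7 genes in Total RNA, 4 in Light and 3 in Heavy, against 44.5%, 50.6% and 37.9% of all genes in the same order. The counts are read against these shares, and nothing particular to the 7 genes is drawn from the counts.

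The split of calls depended on the scaling. In Light RNA 67.9% of all called genes were higher in KO on the deposited scale, against 47.3% after quantile normalization and 46.2% after median-of-ratios scaling. In Total RNA the shares were 60.9%, 48.9% and 53.7%, and in Heavy RNA 64.1%, 49.1% and 44.6%. On the deposited scale the median gene of at least 1 CPM (11602 genes) was 0.143 higher in KO than in control in Light RNA on the log2 scale, 0.046 higher in Heavy and 0.012 lower in Total RNA (log2 change -0.012). Light changes are therefore also given relative to that median.

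Bcl2l1, which encodes Bcl-xL, was the member that rose in all 3 kinds of RNA. It had 52.4, 60.7 and 60.2 CPM in Total KO libraries against 36.0, 37.7 and 38.6 CPM in Total control libraries. Light RNA had 82.8, 98.0 and 93.5 CPM in KO against 62.2, 62.4 and 58.9 CPM in control. In Heavy RNA it had 45.2, 59.8 and 64.3 CPM in KO against 36.4, 33.1 and 31.8 CPM in control. Every KO library lay above every control library of its fraction, and within KO the library numbered 1 was the lowest each time.

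The log2 change of Bcl2l1 was 0.61 in Total RNA (SE 0.12, adjusted p = 0.00111, limma), 0.57 in Light RNA (SE 0.12, adjusted p = 0.00127; 0.43 relative to the median gene) and 0.71 in Heavy RNA (SE 0.12, adjusted p = 0.000274). In mean CPM these were 1.54-fold, 1.49-fold and 1.67-fold higher levels in KO. Leaving out the KO libraries numbered 1 gave log2 changes of 0.68, 0.64 and 0.86 in the same order. It remained called in each of the 3 fractions under every alternative run.

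Bcl2l2, which encodes Bcl-w, had lower levels in KO. Its Total KO libraries had 42.0, 42.2 and 42.4 CPM, against 72.6, 72.1 and 68.2 CPM in Total control libraries. Light KO libraries had 29.5, 49.4 and 59.1 CPM against 76.2, 97.4 and 82.2 CPM in Light control libraries, and in Heavy RNA there were 13.4, 16.0 and 18.7 CPM in KO against 23.4, 21.9 and 20.6 CPM in control. No KO library reached a control library of its fraction, and the Light KO libraries spread the most, with a mean of 46.0 ± 15.1 CPM (SD, n = 3).

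Bcl2l2 fell by 0.74 on the log2 scale in Total RNA (SE 0.18, adjusted p = 0.00711, limma) and by 0.92 in Light RNA (SE 0.18, adjusted p = 0.000887; log2 change -1.07 relative to the median gene). Without the KO libraries numbered 1, of which the Light one was the lowest Light KO library, the Light change was -0.64 (adjusted p = 0.000452, limma). In Heavy RNA the log2 change was -0.44 (SE 0.18, adjusted p = 0.0851), which did not pass. It did pass there after quantile normalization (-0.53, adjusted p = 0.0390), after median-of-ratios scaling (-0.61, adjusted p = 0.0182), without Heavy KO replicate 3 (-0.55, adjusted p = 0.0470) and without the KO libraries numbered 1 (-0.33, adjusted p = 0.0413). The mean level in KO was 0.594 of control in Total RNA, 0.540 in Light and 0.729 in Heavy. The Heavy and Light changes did not differ past the threshold: their difference was 0.48 on the log2 scale (95% interval -0.07 to 1.03, adjusted p = 0.425).

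Bcl2, the founding member of the family, was the lowest of the 4 Bcl-2 genes. Its Total KO libraries had 2.61, 2.60 and 2.64 CPM, from 89 to 108 reads each, against 6.46, 4.89 and 3.75 CPM in Total control libraries. Its Light levels were 3.41, 2.14 and 1.81 CPM in KO against 3.54, 3.25 and 3.96 CPM in control, and in Heavy RNA 3.31, 2.11 and 1.92 CPM in KO against 4.27, 4.73 and 4.07 CPM in control. The genotypes did not overlap in Total and Heavy RNA, and in Light RNA the KO library numbered 1 lay among the control libraries.

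Bcl2 fell by 0.71 in Total RNA (SE 0.18, adjusted p = 0.00853, limma) and by 0.66 in Heavy RNA (SE 0.18, adjusted p = 0.0133) on the log2 scale. Its call in Total RNA did not hold without Total control replicate 1 (-0.55, adjusted p = 0.0524) and the Heavy call without Heavy KO replicate 3 (-0.55, adjusted p = 0.0516). In Light RNA the log2 change was -0.43 (SE 0.18, adjusted p = 0.0747), or -0.57 relative to the median gene, and -0.62 (adjusted p = 0.00563) without the KO libraries numbered 1. The difference between its Heavy and Light changes was -0.22 (95% interval -0.78 to 0.33, adjusted p = 0.775), so the fractions were not shown to differ.

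Mcl1, the most abundant member per kilobase, had close levels in both genotypes in Total and Heavy RNA. Total KO libraries had 205, 212 and 197 CPM against 225, 197 and 200.4 CPM in Total control libraries, and Heavy KO libraries had 252, 257 and 245 CPM against 251.5, 276 and 276 CPM in Heavy control libraries. In Light RNA it had 197, 177 and 203.5 CPM in KO against 148, 141 and 159 CPM in control. The genotypes overlapped in Total and Heavy RNA and did not in Light RNA, where KO was higher.

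The log2 change of Mcl1 was -0.02 in Total RNA (95% interval -0.21 to 0.17, adjusted p = 0.919, limma) and -0.09 in Heavy RNA (95% interval -0.28 to 0.10, adjusted p = 0.519). In Light RNA it rose by 0.37 (SE 0.09, adjusted p = 0.00423), which was 0.22 relative to the median gene. Median-of-ratios scaling took the Light call away (0.14, adjusted p = 0.237) and gave a Heavy one (-0.26, adjusted p = 0.0341).

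**Figure D2:**
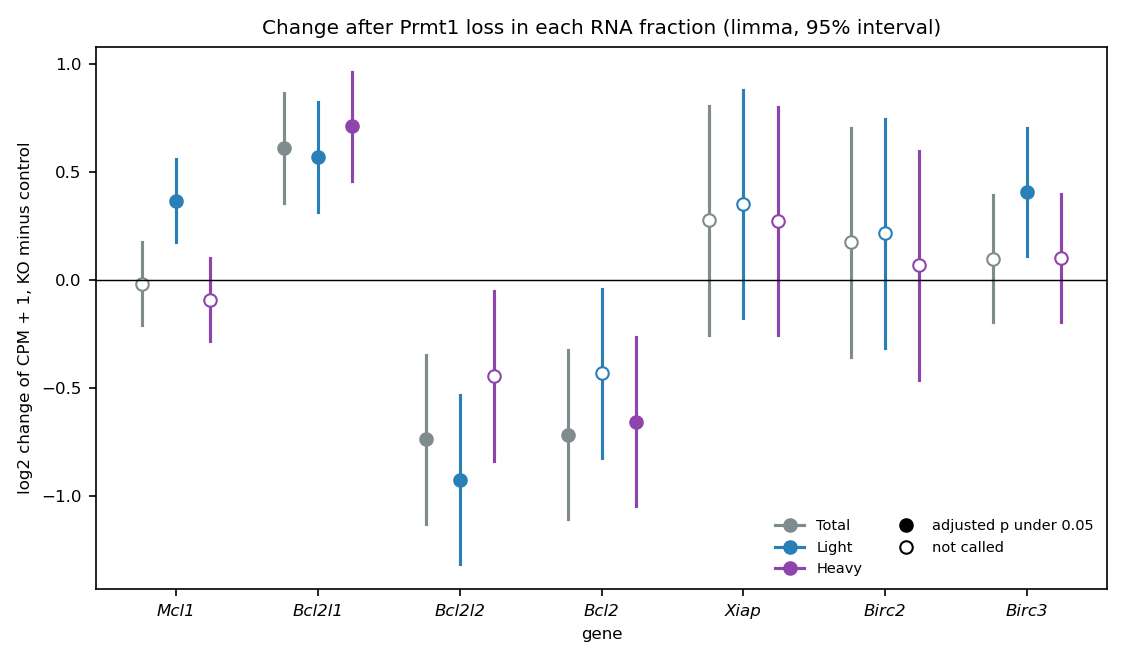
Log2 change of CPM + 1, KO minus control, for each gene in Total (grey), Light (blue) and Heavy (purple) RNA, with 95% intervals from limma and filled points for adjusted p under 0.05. Bcl2l1 lies above 0 and Bcl2l2 and Bcl2 below 0 in the 3 fractions, Mcl1 and Birc3 are called in Light RNA, and the intervals of Xiap and Birc2 span 0 throughout.

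Since a gene's CPM in a library depends on all other genes, the ratio of Bcl2l1 to Bcl2l2 within a library was also taken, which no scaling of the library changes. Per kilobase of coding sequence it was 1.14 ± 0.0878 in Total KO libraries and 0.438 ± 0.0296 in Total control libraries (SD, n = 3). In Light RNA it was 1.76 ± 0.517 in KO and 0.601 ± 0.0733 in control, and in Heavy RNA 2.92 ± 0.160 in KO and 1.27 ± 0.0190 in control. The lowest KO library lay above the highest control library in each: 1.03 against 0.469 in Total, 1.31 against 0.677 in Light and 2.80 against 1.29 in Heavy RNA. That had to follow, because each gene alone showed no overlap and they moved in opposite directions. It adds no support to the changes of either gene. The ratio was also higher in Heavy than in Light RNA within each genotype.

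The size of that ratio, but not its fold between groups, depends on the lengths used. Per kilobase of whole annotated transcript it was 1.87 ± 0.145 in Total KO libraries and 0.721 ± 0.0487 in Total control libraries. A ratio shows unequal change of the genes, and no test was run on it because both genes were tested above.

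**Figure D3:**
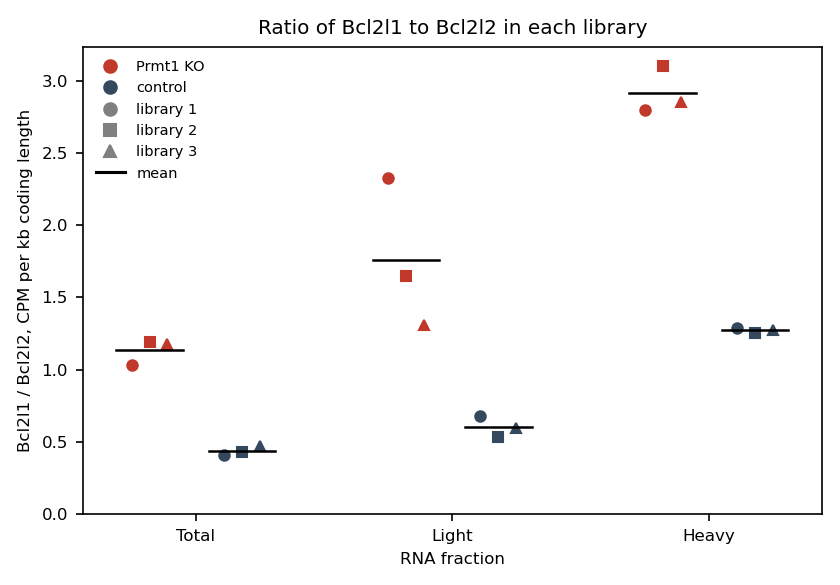
Ratio of Bcl2l1 to Bcl2l2 (CPM per kb of coding sequence, axis from 0) in each library, with KO (red) left of control (dark blue) in each kind of RNA and bars at the means. The KO means are 1.14, 1.76 and 2.92 and the control means 0.438, 0.601 and 1.27 in Total, Light and Heavy RNA. The lack of overlap follows from that of each gene's CPM.

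Taken as shares of the summed level of the 4 Bcl-2 genes per kilobase, Bcl2l1 made up 22.6% ± 1.46 in Total KO libraries and 13.7% ± 1.07 in Total control libraries. Bcl2l2 made up 19.9% ± 0.550 in KO and 31.2% ± 1.05 in control, and Mcl1 56.5% ± 1.39 in KO and 53.3% ± 1.60 in control. The sum itself was 364 ± 10.5 CPM per kb in Total KO libraries and 391 ± 17.6 in Total control libraries. In Heavy RNA Mcl1 held 69.5% ± 3.67 in KO and 74.5% ± 2.20 in control, and Bcl2l1 22.0% ± 3.06 in KO and 13.3% ± 1.27 in control. The Heavy sum was 364 ± 15.9 CPM per kb in KO and 361 ± 9.39 in control. Bcl2 held at most 1.35% in any KO library of Heavy RNA and 1.81% in any control library of it. All these shares and sums depend on the lengths used. Annotated transcripts had 3418 nt for Mcl1, 2568 nt for Bcl2l1, 3509 nt for Bcl2l2 and 7191 nt for Bcl2. Per kilobase of transcript, which was not taken for them, the shares would differ and the lower Total KO sum need not hold.

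Because the changes of Bcl2l1, Bcl2 and Bcl2l2 were present in Total RNA, the promoter window of each is shown, as the 250 bases before a start in RefSeq (GRCm38.p6), on the gene's strand, with capitals for motif matches. The motifs searched on both strands were GGGNNNTTC (NF-kB-like), TTCNNNGAA (STAT-like), CACGTG (E-box) and GGGCGG (Sp1-like), which overlapped one another in none of the windows shown. The Bcl2 window is chr1:106714291-106714540 (minus strand), that of Bcl2l1 chr2:152831729-152831978 (minus strand) and that of Bcl2l2 chr14:54883175-54883424 (plus strand).
Bcl2: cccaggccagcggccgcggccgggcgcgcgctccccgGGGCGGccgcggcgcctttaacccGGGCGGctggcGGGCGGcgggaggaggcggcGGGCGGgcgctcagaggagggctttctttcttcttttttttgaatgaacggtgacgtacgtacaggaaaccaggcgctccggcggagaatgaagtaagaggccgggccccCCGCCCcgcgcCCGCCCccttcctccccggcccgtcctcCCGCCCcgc
Bcl2l1: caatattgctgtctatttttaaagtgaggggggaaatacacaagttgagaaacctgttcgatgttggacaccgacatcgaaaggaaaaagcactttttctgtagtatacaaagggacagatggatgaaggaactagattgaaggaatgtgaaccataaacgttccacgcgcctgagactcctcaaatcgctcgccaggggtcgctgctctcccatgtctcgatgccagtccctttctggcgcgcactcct
Bcl2l2: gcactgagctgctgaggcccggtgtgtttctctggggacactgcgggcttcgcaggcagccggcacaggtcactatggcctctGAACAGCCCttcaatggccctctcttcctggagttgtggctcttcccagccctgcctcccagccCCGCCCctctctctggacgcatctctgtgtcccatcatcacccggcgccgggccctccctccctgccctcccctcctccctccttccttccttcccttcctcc
The Bcl2 window was 74.8% G and C and held 7 matches to GGGCGG, a motif with at least 1 match in 32.7% of 32851 promoter windows. The Bcl2l1 window was 47.6% G and C and held none of the 4 motifs, and that of Bcl2l2 was 66.0% G and C with 1 match to GGGCGG and 1 to GGGNNNTTC. GGGNNNTTC is in 11.8% of all windows, TTCNNNGAA in 7.02% and CACGTG in 6.02%. Another RefSeq start of Bcl2l1, 1011 bases into the gene, had 1 match to GGGNNNTTC in its window. These matches are letters in a window, and which start the cells used is not known from the table.

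Of the IAP genes, Xiap, the caspase inhibitor, had 23.3, 20.0 and 15.9 CPM in Total KO libraries against 20.8, 16.0 and 12.2 CPM in Total control libraries. In Light RNA it had 12.3, 7.85 and 9.37 CPM in KO against 4.57, 7.99 and 10.7 CPM in control, and in Heavy RNA 7.39, 6.28 and 8.12 CPM in KO against 4.92, 7.28 and 5.43 CPM in control. The genotypes overlapped in each. The log2 changes were 0.28 in Total (95% interval -0.25 to 0.80, adjusted p = 0.464, limma), 0.35 in Light (-0.18 to 0.88, adjusted p = 0.291) and 0.27 in Heavy RNA (-0.25 to 0.80, adjusted p = 0.472), so a change of up to 0.80 in Total RNA lay within the interval. Relative to the median gene the Light change of Xiap was 0.21.

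Birc2, which encodes cIAP1, had 8.21, 4.69 and 6.16 CPM in Total KO libraries against 7.28, 5.24 and 4.06 CPM in Total control libraries. It had 4.02, 1.95 and 2.88 CPM in Light KO against 2.11, 1.88 and 3.10 CPM in Light control, and 4.80, 2.64 and 2.85 CPM in Heavy KO against 2.39, 3.89 and 3.26 CPM in Heavy control. The libraries of the genotypes were mixed in all 3. The log2 changes were 0.17, 0.22 and 0.07 in Total, Light and Heavy RNA, with adjusted p of 0.669, 0.536 and 0.900 by limma, and the Light change was 0.07 relative to the median gene. Their direction was not stable: quantile normalization gave -0.05 in Light and -0.18 in Heavy RNA, median-of-ratios scaling -0.06 in Heavy RNA, and leaving out the KO libraries numbered 1 gave -0.0028 in Total and -0.14 in Heavy RNA.

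Birc3, which encodes cIAP2 and is a known target of NF-kB, was measured from 64 to 160 reads per library. In Light RNA it had 2.94, 2.28 and 2.03 CPM in KO against 1.74, 1.31 and 1.65 CPM in control, without overlap. In Total RNA it had 3.99, 2.52 and 3.62 CPM in KO against 3.40, 3.07 and 2.69 CPM in control, and in Heavy RNA 3.14, 2.53 and 3.04 CPM in KO against 2.56, 2.80 and 2.53 CPM in control, both with overlap. The Light difference passed with a log2 change of 0.41 (SE 0.14, adjusted p = 0.0291, limma), or 0.26 relative to the median gene.

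That Birc3 call was lost in 8 of its alternatives, among them quantile normalization (0.17, adjusted p = 0.373) and leaving out the KO libraries numbered 1 (0.30, adjusted p = 0.0937). The log2 changes in Total (0.10, adjusted p = 0.662) and Heavy RNA (0.10, adjusted p = 0.668) were not called and turned to -0.06 and -0.15 after quantile normalization. The difference between the Heavy and Light changes was -0.31 (95% interval -0.72 to 0.11, adjusted p = 0.532).

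Heavy against Light RNA separated the members more than genotype did. These are shares within each fraction's library, so they say how a gene ranked between fractions and not how much of its RNA each held. In control cells 4 of the 7 genes were called, Mcl1 and Birc3 higher and Bcl2l1 and Bcl2l2 lower in Heavy RNA, where 50.7% of all genes were called (23.6% higher, 27.1% lower). In KO cells 3 were called, Mcl1 higher and Bcl2l1 and Bcl2l2 lower, where 43.6% of all genes were called (16.8% higher, 26.8% lower).

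Mcl1 stood highest in Heavy against Light RNA. Its log2 differences for libraries of the same number were 0.36, 0.54 and 0.27 in KO and 0.77, 0.97 and 0.80 in control. All 6 were above 0, and the KO differences lay below those of control without overlap. Bcl2l2 also had no overlap, in the opposite direction. The share of all genes without overlap in these differences was not taken. The fitted differences were 0.39 in KO (SE 0.09, adjusted p = 0.00227, limma) and 0.84 in control (SE 0.09, adjusted p = 6.08e-07). With only the libraries of the comparison in the fit, the KO call was lost (adjusted p = 0.0781).

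Bcl2l2 stood lowest, with same-number log2 differences of -1.09, -1.57 and -1.61 in KO and -1.66, -2.10 and -1.94 in control. Every KO difference lay above every control difference. The fitted differences were -1.42 in KO (SE 0.18, adjusted p = 1.24e-05, limma) and -1.90 in control (SE 0.18, adjusted p = 2.18e-07). Bcl2l1 had -0.70 in KO (SE 0.12, adjusted p = 0.000156) and -0.84 in control (SE 0.12, adjusted p = 1.34e-05). The 2 genes with opposite changes between genotypes were thus on the same side of the gradient in both genotypes.

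Among the IAP genes, Birc3 was higher in Heavy than in Light RNA of control cells by 0.50 (SE 0.14, adjusted p = 0.00593, limma), and in KO cells the difference was 0.20 (SE 0.14, adjusted p = 0.282). Birc2 had differences of 0.17 in KO and 0.31 in control, Xiap of -0.38 in KO and -0.30 in control, and Bcl2 of 0.0024 in KO and 0.23 in control, none of them called. After quantile normalization Birc3 was called in KO (0.44, adjusted p = 0.0112) and Birc2 in control (0.54, adjusted p = 0.0451). For Xiap the control libraries spread from -0.86 to 0.09, and its control difference was called at -0.59 (adjusted p = 0.0468) without Light control replicate 1.

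The 2 genes with the shortest and the longest leaders, Mcl1 and Bcl2, had Heavy over Light differences of 0.84 and 0.23 in control cells, and Xiap, with the most upstream ATGs, had -0.30. The lowest member, Bcl2l2, had a leader of 226 nt and the shortest coding sequence of the 7 (582 nt). Genes in the coding-length bin of Bcl2l2 had a median Heavy over Light difference of -0.32 in control cells and those in the bin of Mcl1 (996 nt) a median of 0.0026. A shorter coding sequence has room for fewer ribosomes. With the median of each gene's bin removed, Bcl2l2 had -1.58 and Mcl1 0.84 in control cells, both called by limma. Whether coding length or the leader sets a gene's place between the fractions was not tested.

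**Figure D4:**
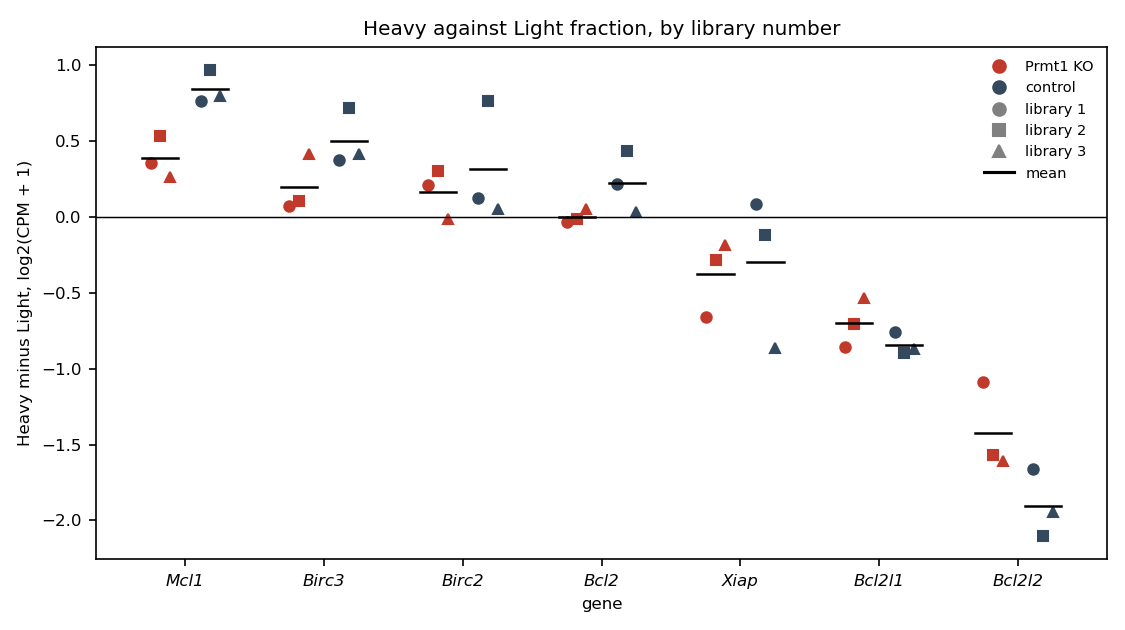
Heavy minus Light log2(CPM + 1) for libraries of the same number, with KO (red) left of control (dark blue) for each gene and bars at the means. Mcl1 lies above 0 in all 6 pairs and Bcl2l1 and Bcl2l2 below 0 in all 6. The KO pairs of Mcl1 (0.27 to 0.54) lie under its control pairs (0.77 to 0.97). Those of Bcl2l2 (-1.61 to -1.09) lie above its control pairs (-2.10 to -1.66). How many of all genes show no such overlap was not taken.

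Whether ribosome loading itself differed between genotypes was asked with the change in Heavy RNA minus that in Light RNA, and minus that in Total RNA. None of the 7 genes was called for the Heavy over Light shift (limma; 1 gene at an unadjusted p under 0.05, and none called with voom), where 2.87% of all genes were called. None was called for the Heavy over Total shift (limma; 0 at an unadjusted p under 0.05, and none with voom), where 0.0114% of all genes, 2 in number, were called. The gene at an unadjusted p under 0.05 was Mcl1, with a Heavy over Light shift of -0.46 (SE 0.13, 95% interval -0.73 to -0.19, adjusted p = 0.0682), or -0.40 relative to the median gene.

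The Mcl1 shift ranged from -0.52 to -0.38 over 23 alternatives, with adjusted p from 0.0169 to 0.184, and passed in 3 of them. It passed without Heavy KO replicate 1 (-0.46, adjusted p = 0.0242), without the 3 KO libraries numbered 1 (-0.44, adjusted p = 0.0394) and in limma without a variance trend (-0.46, adjusted p = 0.0169). It did not pass with the coding-length trend removed (-0.38, adjusted p = 0.113) or with the replicate block (-0.46, adjusted p = 0.0892). The block also held the Total libraries, whose numbers did not match those of the gradients in control cells. It is therefore no clean pairing of Heavy with Light libraries. The Heavy over Total shift of Mcl1 was -0.07 (95% interval -0.34 to 0.20, adjusted p = 0.961). For Bcl2l1 the Heavy over Light shift was 0.14 (95% interval -0.21 to 0.50, adjusted p = 0.780) and the Heavy over Total shift 0.10 (95% interval -0.26 to 0.46, adjusted p = 0.958), intervals that do not hold a change as large as its rise in Total RNA.

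The other genes of the pathway were counted in lists chosen with earlier results of these data known. Of 11 pro-apoptotic Bcl-2 genes, 5 were called higher in KO in Total RNA. In Light RNA 5 were higher and 2 lower, and in Heavy RNA 3 were higher. Over all genes tested 26.4%, 39.5% and 28.9% were called in Total, Light and Heavy RNA. The counts of this list and of those below are read against these shares, and nothing particular to a list is drawn from them. Their median log2 changes were 0.23, 0.22 and 0.24 in Total, Light and Heavy RNA, against 0.01, 0.05 and 0.02 for all genes tested. For genes of at least 1 CPM the medians were -0.012, 0.143 and 0.046. In Light RNA the count was 3 higher and 2 lower after quantile normalization (median 0.012) and 3 higher and 4 lower after median-of-ratios scaling (median 0.095). Bcl2l11, which encodes Bim and whose protein binds all 4 Bcl-2 members described here, had 33.2 ± 0.620 CPM in Total KO libraries and 14.0 ± 0.759 CPM in Total control libraries (SD, n = 3). Its log2 changes were 1.19 in Total, 1.03 in Light and 1.26 in Heavy RNA (adjusted p = 1.68e-07, 5.14e-07 and 9.13e-08, limma). Bmf, another BH3-only gene, rose by 0.85, 0.96 and 1.26 in the same order, and Bbc3, which encodes Puma, by 0.67, 0.57 and 0.87, its Light call lost under both other scalings. Bik, also BH3-only, rose by 0.53 in Light RNA from low levels of 0.814 ± 0.149 CPM in KO and 0.262 ± 0.202 CPM in control.

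Bok and Bad, pro-apoptotic members of the family, were lower in KO in Light RNA, with log2 changes of -1.03 (adjusted p = 0.00934) and -0.51 (adjusted p = 0.0131, limma). The effectors themselves, Bax and Bak1, were not called on the deposited scale, though both were lower in Light RNA under median-of-ratios scaling. Bax had 113 ± 4.67 CPM in Total KO libraries and 106 ± 5.05 CPM in Total control libraries, and Bak1 171 ± 11.8 CPM in KO and 163 ± 10.2 CPM in control. Those 2 genes are given for their role and were named after their values were seen.

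Of 10 caspases, apoptosome genes and IAP antagonists, 2 were higher and 1 lower in Total RNA, 3 higher and 2 lower in Light and 2 higher and 2 lower in Heavy RNA of KO cells, with median log2 changes of 0.06, 0.28 and 0.03. The shares called over all genes were 26.4%, 39.5% and 28.9% in the same order. After quantile normalization and after median-of-ratios scaling the Light count was 3 higher and 3 lower, with medians of 0.056 and 0.081, and the Heavy count 1 higher and 2 lower, with medians of -0.0024 and -0.14. Xaf1, whose protein binds and antagonises that of Xiap, rose the most, with 38.4 ± 13.4 CPM in Total KO libraries and 2.78 ± 0.238 CPM in Total control libraries (log2 change 3.33, SE 0.24, adjusted p = 6.45e-08, limma). It rose by 3.25 in Light and by 3.16 in Heavy RNA. Casp9, the initiator caspase of the apoptosome, rose by 0.62 in Light and by 0.38 in Heavy RNA, the Heavy call lost under both other scalings. Cycs, which encodes cytochrome c, was lower by log2 changes of -1.07 in Light and -0.77 in Heavy RNA, and Htra2, which encodes a mitochondrial IAP-binding protease, by -0.35 in Light and -0.44 in Heavy RNA.

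Of 23 genes of the TNF receptor complex and NF-kB, the setting in which cIAP1 and cIAP2 act, 4 were higher and 1 lower in Total RNA, 10 higher and 1 lower in Light and 3 higher in Heavy RNA of KO cells. The medians were 0.03, 0.12 and 0.11, where genes of at least 1 CPM had -0.012, 0.143 and 0.046. Of all genes tested 26.4%, 39.5% and 28.9% were called in the same order. In Light RNA the count was 5 higher and 3 lower after quantile normalization and 5 higher and 4 lower after median-of-ratios scaling, and under the second the median was -0.10. In Heavy RNA it was 3 higher and 1 lower, and 2 higher and 4 lower, under the same scalings. Relb and Nfkb2, the non-canonical NF-kB subunits, rose by 1.05 and 1.05 in Light and by 0.73 and 0.76 in Heavy RNA, and Traf2, the adaptor of the cIAPs, by 0.61 in Light RNA. Cflar, a caspase-8 inhibitor, rose by 0.48 in Heavy RNA, a call lost under median-of-ratios scaling, and Rbck1, a subunit of the linear ubiquitin ligase, fell by 0.62 in Light RNA.

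Of 6 genes that turn over the protein of Mcl1, 0 were called in Total RNA (limma; 0 at an unadjusted p under 0.05, and 0 with voom), 3 were higher and 1 lower in Light and 1 was higher in Heavy RNA, with medians of 0.07, 0.35 and 0.27. Beside them, 26.4%, 39.5% and 28.9% of all genes were called in the same order. In Light RNA the count was 2 higher and 1 lower after quantile normalization (median 0.14) and 1 higher and 1 lower after median-of-ratios scaling (median 0.15). Usp9x, which removes ubiquitin from it, rose by 0.59 in Light RNA, a call lost under both other scalings, and by 0.80 in Heavy RNA. Btrc, a substrate receptor of a ubiquitin ligase, rose by 0.80 in Light RNA. Gsk3b rose by 0.54, a call lost under median-of-ratios scaling, and Gsk3a fell by 0.46 in Light RNA; both encode kinases that mark the protein for degradation.

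Of 11 further pro-survival Bcl-2 and BIR-domain genes 7 passed the filter, and 4 were higher and 1 lower in Total RNA, 2 higher and 1 lower in Light and 4 higher and 1 lower in Heavy RNA of KO cells, with medians of 0.16, 0.12 and 0.18. Among all genes tested, 26.4%, 39.5% and 28.9% were called in the same order. Birc5, which encodes survivin, a BIR protein of the dividing cell's chromosomal passenger complex, had 108 ± 26.3 CPM in Total KO libraries and 214 ± 10.4 CPM in Total control libraries, and fell by 1.01, 1.27 and 1.18 in Total, Light and Heavy RNA. Naip2 rose by 1.17, 0.83 and 1.11, from 2.72 ± 0.445 CPM in Total KO libraries and 0.650 ± 0.0878 CPM in Total control libraries. Naip2, Naip1 and Naip6 are near copies, and the last 2, at log2 changes of 0.18 and 0.22 in Heavy RNA, are uncertain for that reason. Birc7 was called higher in Light RNA at 0.161 ± 0.0205 CPM in KO and 0.00681 ± 0.0118 CPM in control, a level too low to give a fold.

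**Figure D5:**
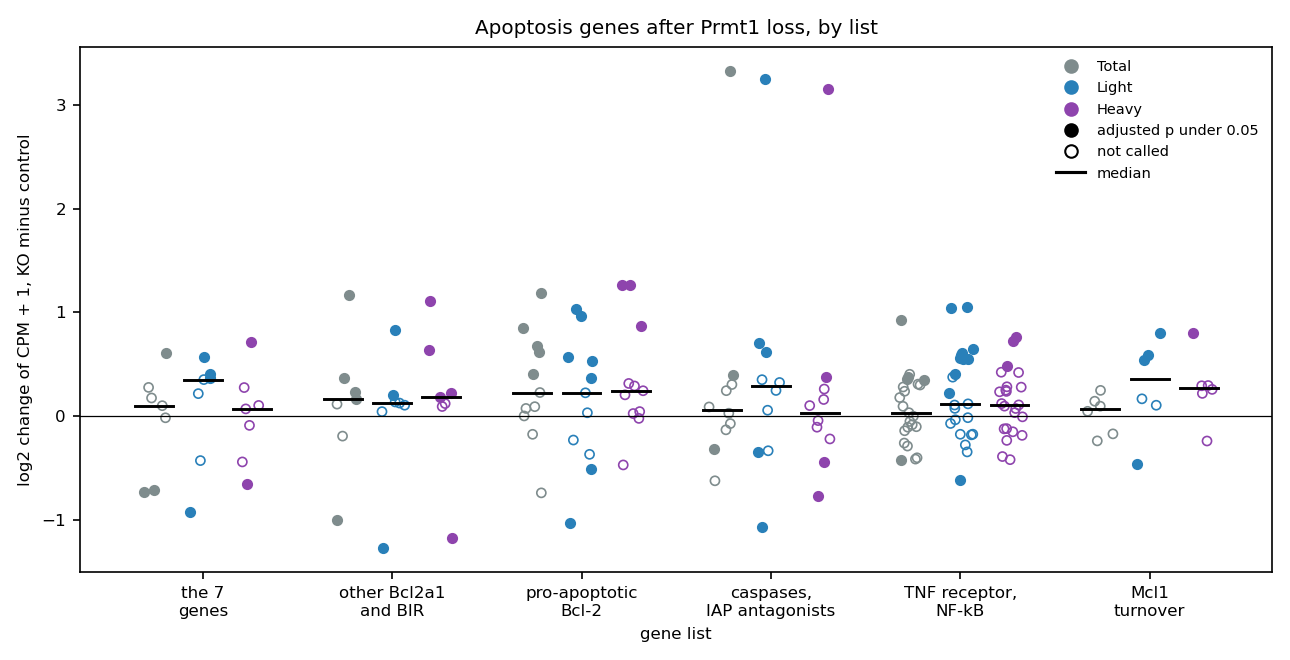
Log2 change of CPM + 1, KO minus control, for each tested gene of the 7 pro-survival genes and of the 5 related lists, in Total (grey), Light (blue) and Heavy (purple) RNA, with filled points for adjusted p under 0.05 and bars at the medians. Xaf1 stands apart at 3.33, 3.25 and 3.16, and the pro-apoptotic Bcl-2 list has medians of 0.23, 0.22 and 0.24.

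The genes whose log2(CPM + 1) followed each member most closely over the 18 libraries were taken by Pearson correlation from 9226 or 9227 genes averaging 5 CPM or more. All libraries share the same fractions and genotypes, so these are descriptions. For Bcl2l2 they were Trim7, Timm8a1 and Cdk2ap1 (r = 0.996, 0.994 and 0.991), and for Bcl2l1 Rab43, Hoxb6 and Lpar2 (r = 0.989, 0.986 and 0.977). For Mcl1 they were Mnat1, Pdha1 and Slbp (r = 0.980, 0.980 and 0.976), and for Xiap Tlk2, Mbtd1 and Kmt2e (r = 0.973, 0.973 and 0.973). Birc2 came with Pnpt1, Ggnbp2 and Scfd1 (r = 0.954, 0.954 and 0.952), Bcl2 with Zfp503, Tgfb2 and Prrx1 (r = 0.921, 0.921 and 0.915) and Birc3 with Rpp38, Ctbs and Wdr60 (r = 0.916, 0.908 and 0.906).

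The order of the 6 groups by mean CPM set the members apart as well. Bcl2l1 was highest in Light KO (91.4 CPM), followed by Light control, Total KO and Heavy KO, each overlapping the next, and lowest in Total and Heavy control (37.4 and 33.8 CPM), which overlapped. Bcl2l2 ran from Light control (85.2 CPM) over Total control to Light KO and Total KO, which overlapped, and then to Heavy control and Heavy KO (16.0 CPM). Mcl1 ran from Heavy control and Heavy KO (268 and 251 CPM, overlapping) over Total control, Total KO and Light KO to Light control (149 CPM). For Xiap and Birc2 each group overlapped the next, with Total KO highest (19.8 and 6.35 CPM), and for Birc3 Light control alone lay below its neighbour, at 1.57 CPM.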

How the data were processed

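RNA-seq values of 18 libraries were analysed as the authors deposited them, in 1 table of log2(CPM + 1). Per the submitters' processing notes, STAR, edgeR and mm10 were used, with no versions given. How reads were assigned to genes, with which annotation and strand, is not stated. Undoing the log2 returned whole reads for 100% of values in each library (tolerance 0.1), which gave depths of 32.3 to 57.9 M reads. Of the 19862 rows, 336 had no symbol and 27 had symbols turned into dates, none of them a member.

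The 7 genes, the related lists and the tests were chosen with earlier results of these data known. limma 3.58.1 in R 4.3.3, with a variance trend and robust variances, was fitted to the deposited log2 values of all 18 libraries with 6 group means, over 17515 genes above 0 in at least 3 libraries. The steps were tested on simulated data. P-values were adjusted by Benjamini-Hochberg over all genes tested, with calls at an adjusted p under 0.05. Shifts are differences of KO changes between fractions.

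All 7 members are named in every comparison. From each related list, the called genes of lowest adjusted p in Light and Heavy RNA were named, up to 3 in each direction, and for each member the 3 genes of highest correlation. A gene that this rule names is not reported here. Samples were grouped by their titles. Same-numbered Heavy and Light libraries deviated together (r = 0.263 to 0.641 in KO, 0.368 to 0.471 in control), so these numbers pair Heavy with Light libraries as far as the data show. Total control libraries did not pair with the same-numbered Light (r = -0.681, 0.383 and -0.680) or Heavy ones (r = -0.506, 0.157 and -0.266). In KO cells Total libraries deviated with same-numbered Light ones (r = 0.461 to 0.648) and less evenly with Heavy ones (r = 0.030 to 0.535). Same-numbered KO and control libraries showed no steady pairing (r = -0.487 to -0.276 in Heavy, -0.075 to 0.104 in Light and -0.208 to 0.602 in Total RNA). Alternatives were quantile normalization, median-of-ratios scaling of recovered reads, voom on recovered reads, a pseudocount of 0.1 CPM, other filters, no trend, fewer libraries, a replicate block, removal of the coding-length trend in 50 bins, and leaving out libraries. Sequences came from GRCm38 with GENCODE M21 and from RefSeq promoter windows of GRCm38.p6, Python 3.11.15 and matplotlib 3.10.9 drew the figures, and protein sequences were not used here.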

Additional observations from a re-analysis of the deposited data

How the results depend on the processing

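Of 49 results, 7 genes in 7 comparisons, 37 kept their side of the threshold in every alternative run, and 22 kept both their side and their sign. Of 910 values of a gene under an alternative, 828 kept both, 55 turned sign without being called, 12 lost a call, 15 gained one and 0 reversed a called direction. Some alternatives, such as the replicate block and limma without trend, leave the log2 change as it was and could not turn a sign. The number of the 7 genes called in Heavy RNA, 2 on the deposited scale, was 4 under median-of-ratios scaling, with Bcl2l2 and Mcl1 added as lower. The number called for the Heavy over Light shift, 0 on the deposited scale, was 1 in limma without trend and 1 without the 3 KO libraries numbered 1, and it ranged from 0 to 1 when single libraries were left out; the gene was Mcl1 each time. Beside the calls named above, Bcl2 was called lower in Light RNA after quantile normalization (-0.71, adjusted p = 0.00391) and median-of-ratios scaling (-0.60, adjusted p = 0.0133). The cause of each change was not tested. With the replicate block the counts of called genes were 3, 4 and 2 in Total, Light and Heavy RNA, 0 for both shifts, and 3 in KO and 4 in control for Heavy against Light, and it changed no call of the 7 genes. The block leaves log2 changes as they were by construction, so only adjusted p could move (0.00452 by limma for Bcl2l1 in Heavy RNA). For KO against control it joined same-numbered libraries of the genotypes, which showed no steady pairing. It is therefore no check of those calls. For both shifts and for Heavy against Light, the block also held the Total libraries, whose numbers do not match the gradients in control cells. It is thus no clean pairing of Heavy libraries with Light or with Total ones. Depth limits the rarest genes: Bcl2 had 62 to 255 reads a library and Birc3 64 to 160.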
